A study of Mus musculus with 2 samples.

Results

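The genes described here are 9 genes of extracellular matrix remodelling, chosen by symbol: the matrix metalloproteinases Mmp12, Mmp14 and Mmp19, the metalloproteinase inhibitors Timp1 and Timp2, the secreted matrix proteins Thbs1, Spp1 and Fn1, and the proteoglycan Vcan. All 9 were found among the 28692 genes listed in both count matrices. They were measured in GR-1+ cells that had been isolated with magnetic beads from mammary fat pad tumors of female BALB/c mice, 8 to 10 weeks old when they entered the study. All mice carried tumors of the 4T1 triple negative breast carcinoma line and all received the anti-PD1 antibody RMP1-14 over a 2 week period, so that no untreated group enters any comparison. The tumors labelled 4T1p came from the parental line, which is resistant to anti-PD1, and those labelled 4T1m from a polyclonal population of the same line that had been mutagenized with MNNG and responds to it. Each tumor type gave 1 library of 10x Genomics 3′ single-cell RNA-seq, and how many animals went into each library was not given in the sources used here.

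Of 4390 barcodes, 3220 passed limits of 250 to 5000 genes, at most 27000 unique molecular identifiers (UMIs, which count RNA molecules) and the study's cap on the mitochondrial share of UMIs. Of the kept cells, 1128 carried the label 4T1p and 2092 the label 4T1m, and the libraries shared 0 barcodes. Before filtering, the medians were 2066 and 2763 UMIs per barcode in the libraries labelled 4T1p and 4T1m. Each of these is the median that the study's methods give for the other tumor, so the libraries are called by their labels throughout, and a direction between them holds only as far as the labels do. With 1 library per tumor there is no replicate error and no test of the tumors. The intervals given are 95% intervals for counting error only, and a ratio compares those libraries.

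Macrophages both build and cut the extracellular matrix. Metalloproteinases cleave elastin, collagens and other matrix proteins, while the Timp proteins bind and block them. Thrombospondin-1, osteopontin and fibronectin are secreted glycoproteins that tie the matrix to integrins and other receptors on cells, and versican is a large proteoglycan that binds hyaluronan. In tumors these genes are known from fibroblasts as well as from macrophages, and several serve as markers of particular tumor macrophages.

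Cells were clustered with the matrix genes left out of the clustering, and clusters were assigned by marker lists. The monocytic-like lineage (monocytes and macrophages) had 868 cells with the label 4T1p and 1014 with the label 4T1m in 6 clusters, and the granulocytic-like lineage (neutrophils and their precursors) had 251 and 1022 cells in 4 clusters. The 11 monocytic markers summed to 30575 and 17195 counts per 1000000 UMIs (CPM) in monocytic-like cells of the libraries labelled 4T1p and 4T1m, against 1065 and 868 CPM in granulocytic-like cells. There were also 36 B cell-like and 29 T cell-like cells, which served as a background for free RNA, with median depths of 3788 and 5488 UMIs. Only 1 B cell-like and 8 T cell-like cells carried the label 4T1p, against 35 and 21 with the label 4T1m. This background thus comes mostly from 1 library, and shares in it rest on few cells. A UMI of Ptprc, which encodes the pan-leukocyte antigen CD45, was found in 38.5% of monocytic-like cells labelled 4T1p and 60.0% of those labelled 4T1m, whose median depths were 1601 and 3756 UMIs.

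The 6 monocytic-like clusters differed in their leading genes and depth. Cluster 2 was led by Tnfrsf9, Inhba, Il6, Met and Il7r, with 84 cells from the library labelled 4T1p, 316 from that labelled 4T1m and a median of 10386 UMIs. Cluster 4 was led by Ccl5, Cxcl9 and Cx3cr1, with 186 and 176 cells. Cluster 11 was led by Cd163, Lyve1 and Cbr2, genes of tissue-resident macrophages, with only 11 and 18 cells. Cluster 7 was led by the division genes Birc5, Top2a and Stmn1, with 95 and 98 cells and a median of 1487 UMIs. Cluster 5 was led by Cxcl9, Tmem176b and Tmem176a, with 235 and 78 cells and a median of 1404 UMIs. Cluster 0 was led by Fabp5 and Lgals1, with 257 and 328 cells and a median of 908 UMIs. A Ptprc UMI was found in 18.3% of its cells, and its lineage is the least certain. In the study, inflammatory genes were higher in monocytic cells enriched in the resistant tumor. MHC class II genes were higher in those enriched in the responsive tumor. Here, 5 inflammatory genes summed to 2161 and 5074 CPM in monocytic-like cells labelled 4T1p and 4T1m. Cluster 5, with the MHC class II gene H2-Eb1 among its leading genes, had more cells labelled 4T1p. Cluster 4, with H2-Eb1 and H2-Ab1 among its leading genes, had 186 and 176. By label, the inflammatory sum and the cell count of cluster 5 lie the other way from the study. The measures are unlike, as the study compared expression between enriched cells that all had a Ptprc UMI. No MHC class II level by library is given here, and whether labels were exchanged was not tested.

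Promoters are shown for the members with an entry that stood past 2-fold higher in cluster 2 (Mmp12 and Vcan) or in cluster 11 (Timp1 and Timp2) than in the other monocytic-like cells, so that members high in the same cells can be compared for short motifs. RefSeq entries on GRCm38.p6, each from 250 bases before to 50 after a transcription start, were found for 6 of the 9 members. Capitals mark the motifs searched on both strands, TGANTCA (the AP-1 motif), TATAAA (the TATA box) and GGGCGG (the GC box, which reads CCGCCC where it lies on the opposite strand). Among all 32851 promoters of this length, 7.81% held TGANTCA, 13.6% TATAAA and 35.7% GGGCGG. The first line lies at chr9:7347124-7347423 on the plus strand, the second of 2 starts listed for Mmp12. The others lie, in order, at chr13:89742463-89742762 on the minus strand, chrX:20869916-20870215 on the plus strand and chr11:118355362-118355661 on the minus strand.
Mmp12: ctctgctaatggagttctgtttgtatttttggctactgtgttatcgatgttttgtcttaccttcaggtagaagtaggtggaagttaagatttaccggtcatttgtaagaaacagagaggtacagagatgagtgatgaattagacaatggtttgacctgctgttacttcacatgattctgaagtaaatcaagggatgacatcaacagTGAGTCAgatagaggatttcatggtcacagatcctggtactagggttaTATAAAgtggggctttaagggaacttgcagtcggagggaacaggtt
Vcan: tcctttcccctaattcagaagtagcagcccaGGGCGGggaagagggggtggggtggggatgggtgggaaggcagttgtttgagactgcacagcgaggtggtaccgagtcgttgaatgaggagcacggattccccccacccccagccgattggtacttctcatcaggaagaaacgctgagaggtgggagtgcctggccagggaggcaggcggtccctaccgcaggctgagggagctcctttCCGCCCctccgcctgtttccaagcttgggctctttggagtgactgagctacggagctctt
Timp1: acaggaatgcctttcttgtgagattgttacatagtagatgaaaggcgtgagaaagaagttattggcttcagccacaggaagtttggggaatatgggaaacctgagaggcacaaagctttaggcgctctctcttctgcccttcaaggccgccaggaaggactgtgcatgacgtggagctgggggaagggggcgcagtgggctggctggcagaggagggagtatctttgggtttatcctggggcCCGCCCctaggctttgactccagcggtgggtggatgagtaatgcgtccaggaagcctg
Timp2: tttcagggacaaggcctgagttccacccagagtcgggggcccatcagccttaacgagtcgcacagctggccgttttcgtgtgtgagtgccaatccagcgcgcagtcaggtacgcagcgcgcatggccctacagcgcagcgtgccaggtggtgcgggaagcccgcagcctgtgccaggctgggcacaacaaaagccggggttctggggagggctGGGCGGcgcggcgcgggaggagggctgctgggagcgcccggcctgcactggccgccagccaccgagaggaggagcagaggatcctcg

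The Mmp12 promoter held TGAGTCA starting 44 bases before the start site and TATAAA just after it, while its other listed promoter held none of the 3 motifs. Vcan held the GC box in 2 places and Timp1 and Timp2 in 1 each, and none of these held the other motifs in this window. These matches are descriptions of letters and no binding was measured.

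By lineage, the 9 genes were read mostly in monocytic-like cells. Of the 83386 UMIs of all 9 genes, 97.3% lay in monocytic-like cells, 98.6% and 96.8% within the libraries labelled 4T1p and 4T1m. Those cells held 4682460 of the 5570882 kept UMIs labelled 4T1p and 7351658 of the 10831715 labelled 4T1m. Together the 9 genes took 4804 and 7974 CPM of the monocytic-like RNA in the libraries labelled 4T1p and 4T1m. Monocytic-like over granulocytic-like levels were at least 2-fold higher for 8 of 8 members with at least 50 UMIs in the library labelled 4T1p, where 49.9% of 7115 genes were higher by that much, and for 8 of 9 in the library labelled 4T1m, where 54.2% of 8566 genes were. None was lower by 2-fold, against 11.1% and 10.5% of all genes. The median log2 ratio was 4.32 and 4.06 for the members and 0.99 and 1.21 for all genes, so that the scale itself lies towards monocytic-like cells. Relative to those medians, 7 of 8 and 8 of 9 members stayed past 2-fold. After that centring, genes higher in monocytic-like cells fell from 81.8% to 52.0% of all genes past 2-fold in cells labelled 4T1p and from 83.8% to 50.9% in those labelled 4T1m.

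The members separated by lineage to different degrees. Fn1, which encodes fibronectin, stood at 1572 CPM in monocytic-like and 24.2 CPM in granulocytic-like cells of the library labelled 4T1p, and at 3223 and 89.9 CPM in the library labelled 4T1m. Its log2 ratio between lineages was thus 6.02 and 5.16. Mmp14, a membrane-anchored collagenase that also activates other metalloproteinases, had ratios of 6.16 and 5.37. Mmp12, the macrophage elastase, had 4.66 and 4.63, and Spp1, which encodes osteopontin, had 3.20 and 3.44. Thbs1 had 3.99 and 4.53 and Vcan 2.14 and 4.06, with wide intervals in the library labelled 4T1p (Thbs1 2.12 to 7.05, Vcan 0.22 to 5.23 and Mmp14 4.31 to 9.21), where granulocytic-like cells held 2 UMIs of each. Mmp19 had no UMI in those granulocytic-like cells, which set a ratio of at least 3.28 with a floor of 3 UMIs over the group, and a ratio of 3.04 in the library labelled 4T1m. Timp1 had 47 UMIs in monocytic-like and 0 in granulocytic-like cells labelled 4T1p, under the minimum for a ratio, and 3.50 in the other library.

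Timp2 was the exception among the 9. It stood at 230 and 171 CPM in monocytic-like cells and at 114 and 137 CPM in granulocytic-like cells of the libraries labelled 4T1p and 4T1m. Its log2 ratios between lineages were 1.02 and 0.32, and relative to the median over all genes they were 0.02 and -0.89, so that in the library labelled 4T1m its direction changed with the scale. Timp2 was read in every granulocytic-like cluster, from 64.5 CPM in cluster 3 of the library labelled 4T1p to 211 CPM in cluster 6 of the same library. When cells were thinned to 1000 UMIs, 10.0% and 10.5% of granulocytic-like cells held a Timp2 UMI (23.5% and 25.6% before), against 6.90% of T cell-like and 2.86% of B cell-like cells.

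**Figure D1:**
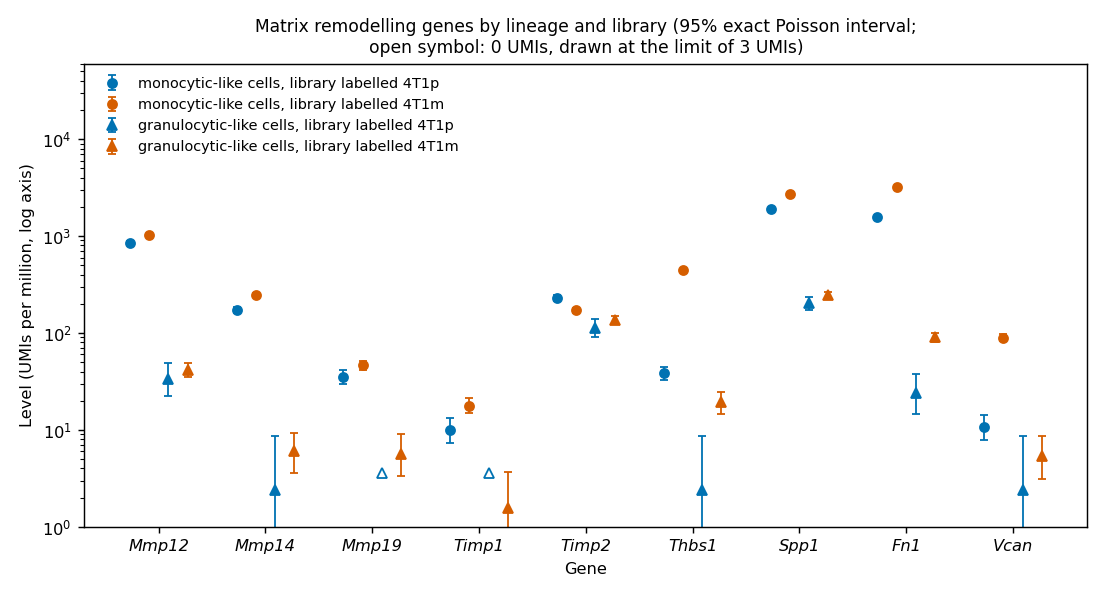
Level of each member in CPM (log axis) by lineage and library, with 95% Poisson intervals and open symbols at the limit of 3 UMIs where no UMI was found. The monocytic-like points lie above the granulocytic-like ones for every member, by the least for Timp2, whose direction in the library labelled 4T1m is reversed relative to the median gene.

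The granulocytic-like levels were set beside those of lymphoid cells, which should lack most of these genes and came mostly from the library labelled 4T1m. Mmp12 was at 33.8 and 41.7 CPM in granulocytic-like cells, against 22.0 CPM in B cell-like and 36.9 CPM in T cell-like cells, where 6 of 7 UMIs lay in a single cell. Mmp14 was at 2.42 and 5.996 CPM in granulocytic-like cells. In B cell-like cells its 3 UMIs lay in a single cell that also held 5 UMIs of fibroblast markers, and in T cell-like cells its 2 UMIs lay in a single cell, so these gave no level of background. Spp1 at 204 and 248 CPM lay above the 16.5 CPM of B cell-like cells, while the 649 CPM of T cell-like cells came mostly from a single cell that held 98 of 123 UMIs. Spp1 was found in 25.1% and 28.7% of granulocytic-like cells, and after thinning to 1000 UMIs in 15.7% and 16.6%, against 10.3% of T cell-like and 2.86% of B cell-like cells. For Mmp12 the shares were 5.18% and 4.11% before and 2.18% and 2.02% after thinning, and no B cell-like or T cell-like cell held a UMI after thinning.

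Between the libraries, the members of the monocytic-like cells moved unequally. Thbs1, Fn1 and Vcan were at least 2-fold higher in the library labelled 4T1m, 3 of 9 members, where 7.54% of 9031 genes were higher by that much and 1.86% were lower. None of the 9 was lower by 2-fold. The median log2 ratio over all genes was 0.11 and that of the 9 members 0.52. Relative to the median over all genes, Thbs1 and Vcan stayed past 2-fold and Fn1 did not, and the share of higher genes among all genes past 2-fold fell from 80.2% to 66.1%.

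Thbs1, whose protein thrombospondin-1 inhibits angiogenesis and activates latent TGF-beta, had the widest difference of the 9. It held 180 UMIs in the monocytic-like cells labelled 4T1p and 3278 in those labelled 4T1m, or 38.4 CPM and 446 CPM. The ratio was 11.6-fold, or 3.54 on the log2 scale (95% interval 3.32 to 3.76). Vcan held 50 and 658 UMIs, or 10.7 and 89.5 CPM, a ratio of 8.38-fold or 3.07 on the log2 scale (2.65 to 3.51). Both genes were thus rare in the library labelled 4T1p. The mean of the ratios within clusters was lower, at 1.76 for Thbs1 and 1.24 for Vcan. For Thbs1 it gives full weight to cluster 5, with 4 UMIs labelled 4T1m against 2, and to cluster 7, with 3 against 3. For Vcan it uses clusters 2 and 4 only, as clusters 0, 5 and 7 held no UMI in the library labelled 4T1p.

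Fn1, at 1572 CPM in the library labelled 4T1p and 3223 CPM in the other, had a log2 ratio of 1.04 (1.00 to 1.07), just past 2-fold. It fell below 2-fold under several settings, at 0.93 in cells with a Ptprc UMI and at 0.91 in the deeply sequenced clusters 2, 4 and 11. Without the highest cell of each library it was 1.12. Spp1 stood at 1882 and 2703 CPM, a log2 ratio of 0.52 (0.49 to 0.56). With no upper limit on genes or UMIs its ratio was 0.13, so the difference depends on which large barcodes are kept.

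Among the proteases, Mmp14 stood at 173 and 248 CPM in monocytic-like cells of the libraries labelled 4T1p and 4T1m, a log2 ratio of 0.52 (0.40 to 0.64). Mmp19, a protease of basement membrane proteins, stood at 35.2 and 46.7 CPM, a log2 ratio of 0.40 (0.13 to 0.68) that became 0.82 without the highest cell of each library. Mmp12 stood at 852 and 1030 CPM, a log2 ratio of 0.27 (0.22 to 0.33), but the mean of its ratios within the clusters was -0.01.

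The inhibitors lay on opposite sides. Timp1 stood at 10.0 and 17.8 CPM, a log2 ratio of 0.83 (0.34 to 1.34) that rested on 47 and 131 UMIs and came to 0.01 in cells with at most 5% mitochondrial UMIs. Timp2 was the only member that was lower in the library labelled 4T1m, at 230 and 171 CPM or -0.43 on the log2 scale (-0.55 to -0.31).

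**Figure D2:**
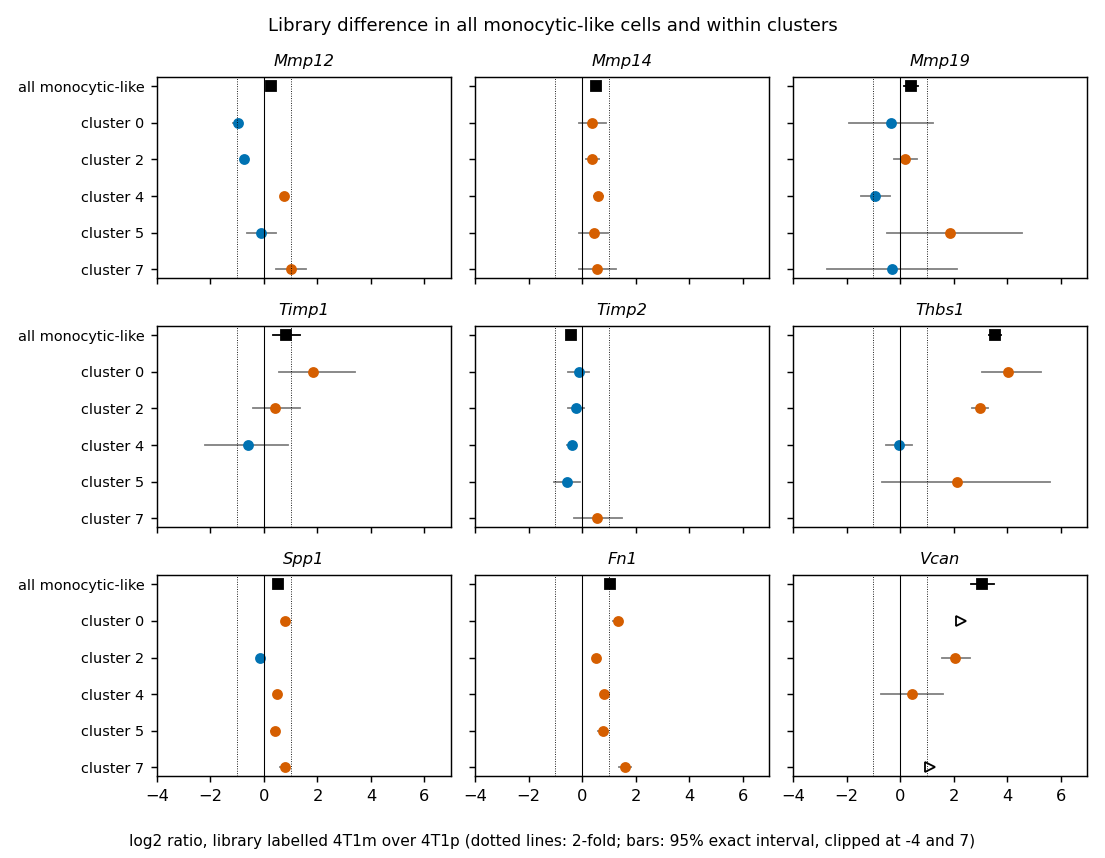
Log2 ratio of the library labelled 4T1m over the library labelled 4T1p for each member, in all monocytic-like cells and in each monocytic-like cluster except cluster 11. Bars are 95% counting intervals, open triangles are bounds with a floor of 3 UMIs, and no point is drawn where both counts are 3 or fewer. Thbs1 lies at 2.97 in cluster 2 and at -0.04 in cluster 4, while Mmp14 and Fn1 lie above 0 in each cluster shown.

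The share of cells with a UMI showed the same directions with depth held equal. Cells of at least 1000 UMIs were thinned to that number, which left 573 monocytic-like cells labelled 4T1p and 782 labelled 4T1m. Thbs1 was then found in 3.14% and 15.1% of them, against 7.26% and 25.05% before thinning. Vcan was found in 1.05% and 6.78% after thinning and in 2.76% and 14.1% before. Fn1 was found in 46.2% and 66.5% after thinning, Spp1 in 46.1% and 54.6%, and Mmp14 in 12.04% and 17.5%, against 53.5% and 74.8%, 58.6% and 69.9%, and 30.9% and 46.5% before. For Mmp12 the thinned shares were 20.8% and 26.5%, and for Timp2 they were 18.5% and 15.2%, which were 36.6% and 37.4% before thinning. Timp1 was found in 1.05% and 1.28% and Mmp19 in 1.57% and 3.96%, shares at which few cells are counted.

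**Figure D3:**
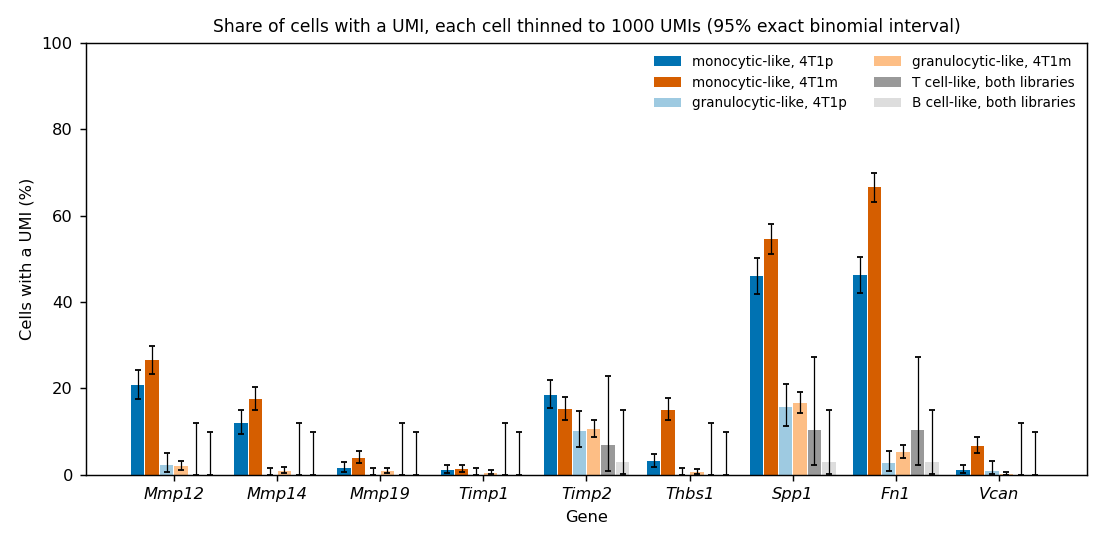
Share of cells with at least 1 UMI of each member in percent, by lineage and library, after each cell was thinned to 1000 UMIs, with 95% Clopper-Pearson intervals. Fn1 and Spp1 were found in the most monocytic-like cells, and Thbs1 stands at 3.14% for 4T1p and 15.1% for 4T1m.

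Within the monocytic-like lineage, cluster 2 carried most of the Thbs1, Vcan and Mmp12. It held 52.2% and 91.8% of the lineage's Thbs1 UMIs in the libraries labelled 4T1p and 4T1m. The same cluster held 68.0% and 88.3% of the Vcan UMIs and 55.5% and 71.5% of the Mmp12 UMIs. Of the monocytic-like UMIs of all genes it held 867619 of 4682460 labelled 4T1p and 3552213 of 7351658 labelled 4T1m. Over both libraries, Thbs1 was 15.0-fold and Vcan 11.4-fold higher in cluster 2 than in the other monocytic-like cells, or 3.91 and 3.51 on the log2 scale. Mmp12 at 1.74 and Mmp19 at 1.43 were also past 2-fold, which made 4 of 9 members higher and 0 lower, where 5.13% of 9031 genes were higher and 7.18% lower. Fn1 at 0.89 and Spp1 at 0.87 were not past 2-fold, and Timp2 lay at -0.83. Within the libraries labelled 4T1p and 4T1m alone, the log2 ratios of cluster 2 were 2.26 and 3.57 for Thbs1, 3.22 and 3.01 for Vcan and 2.45 and 1.43 for Mmp12. In the same cells Il6 was at 237 CPM and Ptgs2, the prostaglandin synthase, at 2411 CPM.

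The library difference of Thbs1 and Vcan lay inside cluster 2 as well as in its size. In that cluster, Thbs1 stood at 108 CPM in cells labelled 4T1p and 847 CPM in those labelled 4T1m, a log2 ratio of 2.97 (2.67 to 3.28). Vcan stood at 39.2 and 164 CPM, a ratio of 2.06 (1.56 to 2.61). In cluster 4, which was as deep, Thbs1 stood at 29.9 and 29.0 CPM, a ratio of -0.04 (-0.55 to 0.46), and Vcan at 5.47 and 7.37 CPM, a ratio of 0.43 (-0.70 to 1.59). The difference was not confined to cluster 2. In cluster 0 the Thbs1 ratio was 4.05, and 3.24 (2.20 to 4.49) without 3 cells with fibroblast markers. Vcan held 11 UMIs labelled 4T1m against 0 in cluster 0 without those cells, and 8 against 0 in cluster 7. The cells of cluster 2 were not equal either: 10 cells held 90.4% of its Thbs1 UMIs among those labelled 4T1p and 33.5% among those labelled 4T1m.

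Mmp12 went the other way in cluster 2. It stood at 2551 CPM there in cells labelled 4T1p and 1525 CPM in those labelled 4T1m, a log2 ratio of -0.74 (-0.81 to -0.67). In cluster 0 it stood at 1562 and 790 CPM, a ratio of -0.98 (-1.15 to -0.82), while in cluster 4 it stood at 377 and 638 CPM, a ratio of 0.76 (0.64 to 0.88), and in cluster 7 at 139 and 276 CPM, a ratio of 0.99 (0.45 to 1.56). Cluster 5 had a ratio of -0.09 (-0.65 to 0.43), which became -1.19 without the highest cell of each library. The higher Mmp12 of all monocytic-like cells in the library labelled 4T1m was thus not shared by the clusters, and more of that library's cells lay in cluster 2. Spp1 had a ratio of -0.16 in cluster 2, at 3654 and 3263 CPM, which turned to 0.032 without the highest cell of each library, and positive ratios of 0.42 to 0.79 in clusters 0, 4, 5 and 7.

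Fn1 was higher in the library labelled 4T1m in each of clusters 0, 2, 4, 5 and 7, with intervals above 0. Mmp14 had ratios above 0 in the same clusters, but only those of clusters 2 (0.15 to 0.63) and 4 (0.44 to 0.79) had intervals that left out 0. The log2 ratios ranged from 0.53 in cluster 2 to 1.59 in cluster 7 for Fn1, and from 0.38 in cluster 0 to 0.61 in cluster 4 for Mmp14. A single cell held 514 of the 2327 Fn1 UMIs of cluster 2 labelled 4T1p. Without the highest cell of each library the Fn1 ratio of cluster 2 was 0.83. Fn1 was highest in cluster 2, at 2682 and 3877 CPM, and Mmp14 in cluster 4, at 198 and 303 CPM, close to the 194 and 253 CPM of cluster 2. Timp2 had ratios from -0.55 to -0.13 in clusters 0, 2, 4 and 5, with intervals below 0 in cluster 4 (-0.57 to -0.21) and cluster 5 (-1.06 to -0.07), and a ratio of 0.56 (-0.31 to 1.48) in cluster 7. Mmp19 stood at 63.4 and 71.8 CPM in cluster 2 but at 37.9 and 19.9 CPM in cluster 4, where its ratio was -0.93 (-1.47 to -0.40). That value rested on a single cell with 48 of the 90 Mmp19 UMIs of cluster 4 in the library labelled 4T1p, and without the highest cell of each library the levels were 17.8 and 15.3 CPM, a ratio of -0.22.

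Cluster 11, the small Cd163 and Lyve1 cluster, differed from cluster 2 in the inhibitors, Mmp12, Mmp14, Thbs1 and Spp1. Over both libraries, Mmp19 was past 2-fold above the other monocytic-like cells in cluster 2 and also in cluster 11. The 29 cells of cluster 11 are too few for a ratio between libraries, so its levels are given only. Timp2 stood at 812 and 844 CPM and was found in all 11 of its cells labelled 4T1p and in 94.4% of those labelled 4T1m, 2.23 on the log2 scale above the other monocytic-like cells. Timp1 stood at 121 and 82.3 CPM, 2.94 above them, from 14 and 16 UMIs. Mmp12 was nearly absent, with 0 and 2 UMIs, a ratio of -7.26 (-10.30 to -5.40), and Spp1 stood at 43.2 and 309 CPM, a ratio of -3.54. Mmp14 stood at 104 and 103 CPM. In all, 3 of 9 members were past 2-fold higher than in the other monocytic-like cells and 4 lower (Mmp12, Mmp14, Thbs1 and Spp1), where 12.9% of genes were higher and 15.0% lower. Mmp19 was at 43.2 and 123 CPM, from 5 and 24 UMIs, against 35.2 and 46.7 CPM in all monocytic-like cells. Its higher level in cluster 11 thus came mostly from the library labelled 4T1m. Fn1 was at 1201 and 3844 CPM, with 286 of the 747 UMIs of the library labelled 4T1m in a single cell. Vcan was at 25.9 and 160 CPM, from 3 and 31 UMIs, with 24 of the 31 in a single cell. When the genes of the matrix list were kept in for clustering, cluster 11 had no counterpart, and at a resolution of 1.2 the Cd163 and Lyve1 cluster grew to 100 cells with Timp2 at 455 CPM and Mmp12 at 392 CPM. Its outline, and with it these levels, depend on the clustering.

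Clusters 5 and 7 were low in 6 of 9 members, and clusters 4 and 0 in fewer. In cluster 4, Thbs1 at -3.94, Vcan at -3.85, Timp1 at -2.50 and Mmp12 at -1.31 were past 2-fold below the other monocytic-like cells, 4 of 9 members, where 4.31% of genes were below and 2.51% above. For Thbs1 this came mostly from the library labelled 4T1m, at -4.45, against -0.66 in the library labelled 4T1p, where cluster 4 held 71 of 180 Thbs1 UMIs. In cluster 5, where 23.7% of genes were below and 3.27% above, 6 members were below, and there was no Vcan UMI in either library. Cluster 7 also had 6 below, where 13.2% of genes were below and 10.2% above, with Thbs1 at -5.03 and Timp2 at -1.35. Cluster 0 had Timp1 above, at 1.30, and Mmp19 and Vcan below, at -1.62 and -1.80, where 2.54% of genes were above and 11.3% below. Of its 37 Timp1 UMIs, 15 lay in 3 cells with fibroblast markers, described below. Whether Timp1 stays past 2-fold in cluster 0 without those cells is not given here. Spp1 stayed high in these shallow clusters, at 1989 and 3430 CPM in cluster 0 and at 2102 and 2808 CPM in cluster 5.

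**Figure D4:**
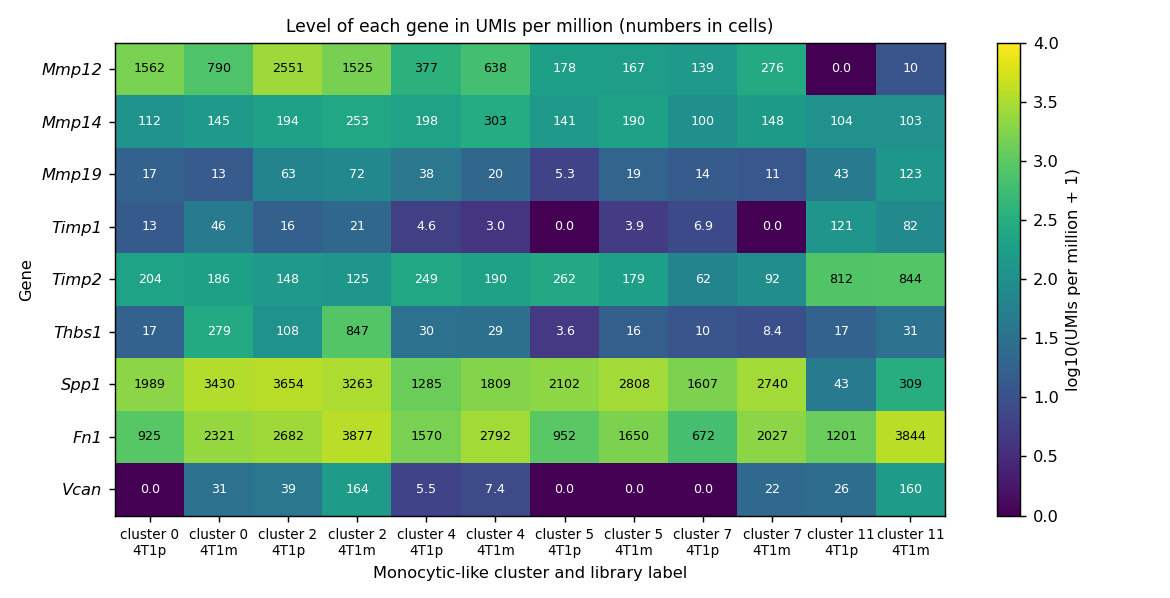
Heat map of the level of each member by monocytic-like cluster and library, coloured on a log scale, with the CPM printed in each cell. Thbs1 and Vcan stand highest in cluster 2 of the library labelled 4T1m, at 847 and 164 CPM, and Timp2 stands highest in cluster 11, at 812 and 844 CPM. Vcan in cluster 11 of the library labelled 4T1m is close, at 160 CPM, with 24 of its 31 UMIs in a single cell.

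Some of the cluster 0 signal sat in cells with fibroblast markers. The 6 genes of the fibroblast list summed to 5 UMIs (1.07 CPM) in monocytic-like cells labelled 4T1p and 290 UMIs (39.4 CPM) in those labelled 4T1m, with Pdgfra at 0 in both. Of the 290, 259 lay in 3 cells of cluster 0, which together held 45583 UMIs and 0 UMIs of the macrophage gene Csf1r. These 3 cells held 46.8% of the cluster's Thbs1 UMIs in that library, 47.6% of its Vcan, 48.4% of its Timp1 and 22.2% of its Mmp14. Without them the cluster 0 log2 ratio between the libraries went from 4.05 to 3.24 for Thbs1, from 1.85 to 0.99 for Timp1 and from 0.38 to 0.12 for Mmp14, and the Vcan counts became 11 against 0. Over all monocytic-like cells the ratios without them were 3.51 for Thbs1, 3.05 for Vcan, 1.04 for Fn1 and 0.66 for Timp1. The 5 epithelial or tumor markers summed to 31.6 CPM in monocytic-like cells labelled 4T1p and 12.2 CPM in those labelled 4T1m, and their part in the result was not tested.

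In granulocytic-like cells, 5 members had the 50 UMIs needed for a ratio between the libraries. Thbs1 and Fn1 were past 2-fold higher in the library labelled 4T1m, 2 of 5 members, where 7.15% of 4491 genes were higher by that much and 3.25% lower. Both reached the minimum, which is set on the sum of the libraries, only through the library where they were high. The count of 2 of 5 is thus partly fixed by that minimum. Fn1 held 20 UMIs in cells labelled 4T1p and 285 in those labelled 4T1m, or 24.2 and 89.9 CPM, a log2 ratio of 1.90 (1.24 to 2.63). Thbs1 held 2 and 61 UMIs, a ratio of 2.99 (1.08 to 6.07), and 10 cells held 93.4% of the 61, with 28 of them in a single cell. Without the barcodes of highest Scrublet doublet score, the ratio was 1.11 for Fn1 and 1.87 for Thbs1. In the same setting that of Mmp12 went from 0.30 to -1.38 and that of Vcan from 1.15 to -0.61. When cells were thinned to 1000 UMIs, Fn1 was found in 2.62% and 5.32% of granulocytic-like cells (5.58% and 13.2% before), against 10.3% of T cell-like and 2.86% of B cell-like cells. Its level was 22.0 CPM in B cell-like cells (5.98 to 56.2) and 132 CPM in T cell-like cells, where 19 of 25 UMIs lay in a single cell. Mmp12 at 0.30 (-0.30 to 0.94), Timp2 at 0.27 (-0.06 to 0.60) and Spp1 at 0.28 (0.04 to 0.53) were under 2-fold. The other members held 2, 0, 0 and 2 UMIs in the library labelled 4T1p for Mmp14, Mmp19, Timp1 and Vcan, and 19, 18, 5 and 17 in the other.

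The number of the 9 genes per cell was counted in the deep clusters. In cells thinned to 5000 UMIs, 5 or more of the 9 were found in 29.5% of cluster 2 cells labelled 4T1p and 46.4% of those labelled 4T1m, against 13.1% and 15.7% in cluster 4. Cluster 11 had 12 such deep cells in the library labelled 4T1m, of which 33.3% held 5 or more. In cluster 2 of the library labelled 4T1m, Thbs1 was found in 49.1% of cells, Vcan in 31.7% and both in 21.9%, while the product of the shares is 15.6%. Mmp12 was found in 51.7% of the same cells and together with Thbs1 in 20.8%, below the product of 25.4%. In the library labelled 4T1p, Thbs1 and Vcan were found together in 8.20% of 61 cells of cluster 2, where the product is 2.42%. Thbs1 thus met Vcan in the same cells more often than their shares give, and Mmp12 less often, as a description of these cells.

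Across 10 groups, the monocytic-like clusters of at least 20 cells split by library, Thbs1 and Vcan had a Pearson correlation of log2(CPM + 10) of 0.88. The pairs Mmp14 and Fn1, Timp1 and Thbs1, and Fn1 and Vcan each had 0.82. Timp2 had between -0.22 and 0.29 with the other members. These groups share libraries and depth, and the values are descriptions. Of 3189 genes with at least 500 UMIs in monocytic-like cells, those with the pattern most like Thbs1 were Peak1 (0.96), Colec12 and Rab6a. Those most like Vcan were Gda (0.95), Fbxl5 and Cast, and those most like Mmp12 were Ndrg1 (0.98), Plin2 and Card19. For Fn1 they were Arfgef1 (0.97), Hif1a and Picalm, and for Mmp14 Sppl2a (0.97), Ifnar1 and Zfc3h1. For Mmp19 they were Slc38a2 (0.95), Nfkbia and Tnfsf9, for Spp1 Rala (0.91), Nt5e and Ctnnb1, for Timp1 S100a6 (0.89), S100a11 and Tbc1d20, and for Timp2 Dram2 (0.91), Trf and Tmem59. The 3 cells with fibroblast markers were kept in these groups. They held 15 of the 31 Timp1 UMIs, 89 of the 190 Thbs1 UMIs and 10 of the 21 Vcan UMIs of cluster 0 labelled 4T1m. Timp1 had 0 UMIs in cluster 5 labelled 4T1p and in cluster 7 labelled 4T1m, so its values rest on few counts. Vcan had 0 UMIs in clusters 0 and 7 labelled 4T1p and in cluster 5 of both libraries, so its correlations rest on few counts as well.

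The 9 genes were set beside a wider list of matrix genes, of which 103 of 105 were in the files. In monocytic-like cells, 57 had at least 50 UMIs, and 20 of these (35.1%) were past 2-fold higher in the library labelled 4T1m and 1 lower. Over all 9031 genes, 7.54% were higher by that much and 1.86% lower. The median log2 ratio of the 57 was 0.61, against 0.11 over all genes. By class, 5 of 6 collagens, 4 of 7 matricellular proteins and glycoproteins, 4 of 14 receptors and partners and 1 of 6 proteases of the Mmp family were past 2-fold higher, and 0 of 4 cathepsins. The 5 highest were Postn at 6.35, Serpinb2 at 6.17, Col1a1 at 5.99, Col3a1 at 5.21 and Bgn at 4.36, and the 5 lowest were Adamdec1 at -1.40, Hyal1 at -0.51, Tgfbi at -0.48, Timp2 at -0.43 and Ctss at -0.39. Postn, Col1a1, Col3a1 and Bgn are typical fibroblast genes, and Postn stayed at 5.47, with 69 UMIs against 1, without the 3 cells with fibroblast markers. Without those cells, 50 genes were measured, 11 were past 2-fold higher and 1 lower, where 7.11% of all genes were higher and 1.88% lower. Of 2 collagens 0 were higher, and the median over the 50 genes was 0.49. Serpinb2, a plasminogen activator inhibitor made by macrophages, held 226 UMIs in monocytic-like cells labelled 4T1m and 2 in those labelled 4T1p.

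In granulocytic-like cells, 34 genes of the wider list had at least 50 UMIs, of which 5 (14.7%) were past 2-fold higher in the library labelled 4T1m and 1 (2.94%) lower, where 7.15% of all genes were higher and 3.25% lower. The 5 highest were Thbs1 at 2.99, the collagenase Mmp13 at 2.31, the integrin Itga4 at 2.03, Fn1 at 1.90 and Adam19 at 1.16. Thbs1 and Fn1 reached 50 UMIs only through the library labelled 4T1m, as given above. The 5 lowest were Plau, the urokinase plasminogen activator, at -1.03, F13a1 at -0.61, Ctss at -0.58, Hyal1 at -0.51 and Plaur at -0.50.

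**Figure D5:**
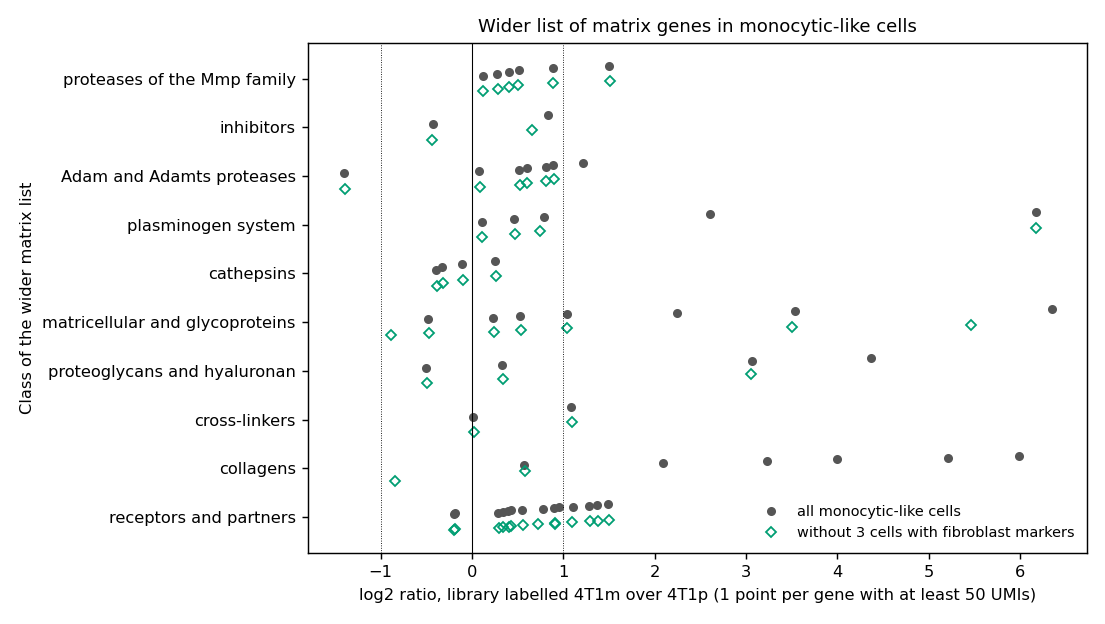
Log2 ratio of the library labelled 4T1m over the library labelled 4T1p in monocytic-like cells for the genes of the wider matrix list with at least 50 UMIs, by class, with open diamonds for values without the 3 cells with fibroblast markers. The collagens fall most when those cells are left out, from 5 of 6 past 2-fold to 0 of 2.

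On the genome (GRCm38, GENCODE M21), the 9 members lie on 9 chromosomes, and all are protein-coding, each on a chromosome of its own. Thbs1 spans chr2:118111876-118127133 and Vcan chr13:89655312-89742509 on the minus strand. Fn1 spans chr1:71585520-71653200 on the minus strand, Spp1 chr5:104435118-104441050, Mmp12 chr9:7344381-7369499 and Mmp14 chr14:54431612-54445364. Mmp19 spans chr10:128790910-128800824, Timp1 chrX:20870166-20874735 and Timp2 chr11:118301069-118355740 on the minus strand. As 3′ reads were counted, ratios of levels were taken between cells and libraries and not between genes. Where genes are set beside each other by share of cells or summed in CPM, these are descriptions of counts.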

How the data were processed

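The authors dissociated tumors with collagenase and DNase, isolated GR-1+ cells and made 3′ v3 libraries, and Cell Ranger (mm10) gave the deposited matrices of raw UMI counts per gene and barcode, whose headers name software version 3.1.0. Collagenase digestion and bead selection precede every level. Barcodes were filtered as the methods state, except that cells without a Ptprc UMI and likely doublets were removed only in alternatives. The likely doublets were the 13 and 44 barcodes with the highest Scrublet scores (scanpy 1.11.5), numbers set in advance from the cell counts. The 58 repeated symbols included no member. SCTransform (3000 variable genes, mitochondrial share regressed, wider matrix list removed), 11 principal components and Louvain at resolution 0.8 were run in Seurat 5.3.0 on R 4.3.3, and the levels in Python 3.11.15 with scipy 1.17.1. Counts were summed by library and lineage or cluster. CPM have exact Poisson intervals, ratios exact binomial and shares Clopper-Pearson intervals. Ratios needed 50 UMIs over both groups to be counted or called. Some of those given within clusters, and that of Vcan in granulocytic-like cells, rest on fewer. Zeros were set to a floor of 3 UMIs over the group, and at least 2-fold was called. On simulated counts of the monocytic-like comparison, drawn as independent Poisson totals per gene and library, the intervals covered 95.3% of 9025 genes. Such draws follow the model of the intervals and hold no clumping of UMIs by cell, so they do not check that error. Total counts were 9021132 and 14840190 UMIs in the libraries labelled 4T1p and 4T1m. UMIs of a cell are not independent, so intervals understate the error. The members and lists were chosen with earlier results of these data known. The text names the 9 members, the 5 highest and 5 lowest genes of the wider list, the marker and leading genes, and the 3 genes most like each member. The alternatives were 14 listed settings and 6 chosen after seeing the data, besides each library alone for the clusters.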

Additional observations from a re-analysis of the deposited data

How the results depend on the processing

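With 1 library per tumor no setting gives replicate error, and members with few UMIs (Timp1, Mmp19, Vcan in the library labelled 4T1p) are limited by depth. No paired analysis was possible because each tumor has 1 library. The count of members past 2-fold between libraries in monocytic-like cells was 3 and became 5 without the 10 cells of each library with most UMIs of the gene. This count was 2 relative to the median over all genes, without Fn1, which also fell below 2-fold under settings given above. In granulocytic-like cells it was 2 and became 1 with log-normalization before clustering, 7 with lineages set per cell by marker UMIs, 1 with the mean over cells of each cell's CPM, 1 without the cell of each library with most UMIs of the gene and 0 with cells thinned to 1000 UMIs. Monocytic-like over granulocytic-like, it was 8 in the library labelled 4T1p and became 4 with thinned cells. Against other monocytic-like cells, cluster 0 went from 3 to 5 with the matrix list kept in for clustering, cluster 4 from 4 to 2 within the library labelled 4T1p alone, and cluster 11 from 7 to 4 with thinned cells. For these counts the cause was not tested, except that thinning and per-cell lineages change how many members reach 50 UMIs. The share of all genes past 2-fold under each setting is not given here. A change in these counts is thus not told apart from a shift over all genes. Between libraries in monocytic-like cells, Thbs1 ranged from 1.76 to 4.09 over the settings on the log2 scale, Vcan from 1.24 to 4.23, Fn1 from 0.91 to 1.33, Mmp14 from 0.40 to 0.67, Mmp19 from 0.09 to 1.18, Timp1 from 0.01 to 1.32, Timp2 from -0.62 to -0.15 and Spp1 from 0.13 to 0.81. The lowest values of Thbs1 and Vcan were those of the mean of ratios within clusters, which gives cluster 2 the weight of any other cluster and, for Vcan, uses only the clusters with UMIs in both libraries. Timp1 between libraries in granulocytic-like cells and between lineages in the library labelled 4T1p, and Mmp19 between libraries in granulocytic-like cells, had 0 UMIs on 1 side and too few on the other for any value. Mmp12 and Vcan between libraries in granulocytic-like cells changed direction without the highest Scrublet scores, as given above. Other values that changed direction were as follows. Spp1 between libraries in cluster 2 was 0.032 without the cell of each library with most UMIs of the gene. Mmp12 between libraries in monocytic-like cells was -0.013 as the mean of ratios within clusters. Timp2 between lineages in the library labelled 4T1m was -0.14 with at most 5% mitochondrial UMIs and -0.89 when centred on the median over all genes. Against other monocytic-like cells, Mmp12 in cluster 0 was -0.42 and Spp1 in cluster 7 was 0.021 within the library labelled 4T1m alone, Mmp19 in cluster 4 was 0.22 and Fn1 in cluster 11 was -0.40 within the library labelled 4T1p alone, Spp1 in cluster 0 was -0.034 with the matrix list kept in, and Spp1 in cluster 7 was 0.23 in cells with a Ptprc UMI.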

Other observations

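Between lineages, the wider matrix list also lay towards monocytic-like cells. In the library labelled 4T1p, 31 of 46 genes with at least 50 UMIs were past 2-fold higher in monocytic-like than in granulocytic-like cells and 6 were lower, and in the library labelled 4T1m 42 of 59 were higher and 6 lower. These are 67.4% and 71.2% of the measured list higher, where 49.9% and 54.2% of all genes were, and 13.04% and 10.2% lower, where 11.1% and 10.5% of all genes were. The median log2 ratio of the list was 1.90 and 2.47, against 0.99 and 1.21 over all genes. All 6 measured matricellular proteins and glycoproteins in the library labelled 4T1p and all 7 in the library labelled 4T1m were higher in monocytic-like cells, as were 3 of 4 cathepsins in each library. Proteases of the Mmp family split by lineage, with 4 higher and 2 lower of 6 in the library labelled 4T1p and 4 higher and 3 lower of 7 in the library labelled 4T1m.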
